A study of Homo sapiens with 6 samples.

Results

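Of the 35036 genes in the count table, 3839 had no gene symbol and 1 exon, and these unnamed single-exon genes are described here. They were chosen as the rows whose name repeats the Ensembl identifier and whose counted length equals the listed span, leaving out 4 rows of the ribosomal DNA region of chromosome 21. The other rows were 25273 unnamed spliced genes and 5920 genes with a symbol. RNA came from the human osteosarcoma line U-2OS, and actinomycin D had been given to the cells of all 6 libraries. In 3 of them the cells carried a control siRNA (SiCtrl) and in 3 an siRNA against SFPQ (SiSFPQ). No library without actinomycin D and no second siRNA was among the samples, and no source used here gave the dose or the duration. The SFPQ gene was not analysed here, which leaves the knockdown unchecked.

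SFPQ is a nuclear protein that binds RNA and DNA, pairs with NONO and PSPC1, and builds paraspeckles on the long non-coding RNA NEAT1. It is known for roles in transcription and RNA processing. Actinomycin D intercalates into DNA and blocks elongation by RNA polymerases, ribosomal DNA being the most sensitive template. Unspliced non-coding RNAs are commonly annotated opposite coding genes (antisense), inside their introns, upstream of their start in the opposite direction (divergent), just past their end, or between genes. Few have a known function, so each gene below is placed by the coding gene at its position.

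The label non-coding was checked against GENCODE release 29 on GRCh38, whose coordinates the table matched. That release held 1632 of the 3839 genes, of which 758 were typed lincRNA, 471 antisense, 326 sense intronic and 59 sense overlapping, and none was typed as coding. It did not hold the other 2207 identifiers. The counted length ran from 68 to 23112 bases with a median of 686.

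Most were barely detected. No read was counted for 1219 genes, 1949 more had too few counts to test, and 671 (17.5%) passed the filter on low counts. Those 671 held 96.9% of the counts of all 3839. Their mean level ran from 4.75 to 10924 CPM (counts scaled to a common table total, with TMM factors), with a median of 20.1 against 28.6 over all 6325 tested genes. The libraries held 1298658 to 1599566 counts in the table, the SiCtrl ones between 1385532 and 1533974, and these totals cover only the genes listed. None of the 10 marker genes of the cell type was in the table itself. Of the 5 mesenchymal markers, RUNX2 had no row over its exons. For the others the rows over their exons summed, in SiCtrl and then SiSFPQ, to 16944 and 18260 CPM at VIM, 376 and 311 at SPARC, 163 and 160 at COL1A1, and 1.42 and 1.60 at COL1A2. Of the 5 markers of other cell types, KRT8 and ALB had no row. The leukocyte marker PTPRC was at 5.69 and 19.2 CPM, EPCAM at 0.97 and 1.31, and PECAM1 at 0.68 and 0.92. These are levels of non-coding rows and do not measure the markers. No unnamed single-exon gene lay over any of these markers.

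No source used here gives the strand setting of the counting. MALAT1 and TALAM1, on opposite strands of 1 locus, held 72563 and 72552 counts in total, and from such values the counts were read as not separating strands. On that reading, reads of a gene over a coding exon and reads of the coding gene cannot be told apart. Coding genes were not analysed here. Of the 3839 genes 681 lay over such exons, on either strand, and 375 of these were tested. A set of 1968 genes overlapped neither a coding exon nor another row of the table, and 201 of them were tested. Of those 201, 83 lay in a coding intron on its strand and 31 opposite an intron. Unspliced RNA of the coding gene could add reads there, which was not tested. Results are given for this isolated set where they differ.

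The sequences below show where divergent genes lie against a coding promoter. Of the main position classes described below, the start side of coding genes was picked for its largest share of increases, 14 of 46 (30.4%). Over all tested genes the share was 24.5%, and 131 of 359 other rows near starts were higher. The first 3 sequences belong to the largest increases among isolated genes near a coding start, and the fourth to a divergent gene that fell. Each is the promoter in RefSeq (GRCh38.p14), 5′ to 3′ on the strand of the coding gene, ending before its annotated starts. Capitals mark the bases inside the non-coding gene.
HSPA4 promoter, chr5:133051763-133051961, plus strand: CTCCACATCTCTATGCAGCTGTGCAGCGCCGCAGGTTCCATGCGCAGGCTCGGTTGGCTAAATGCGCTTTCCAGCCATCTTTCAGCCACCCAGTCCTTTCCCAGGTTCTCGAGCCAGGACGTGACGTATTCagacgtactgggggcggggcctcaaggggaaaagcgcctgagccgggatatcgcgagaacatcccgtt
SETD6 promoter, chr16:58515267-58515478, plus strand: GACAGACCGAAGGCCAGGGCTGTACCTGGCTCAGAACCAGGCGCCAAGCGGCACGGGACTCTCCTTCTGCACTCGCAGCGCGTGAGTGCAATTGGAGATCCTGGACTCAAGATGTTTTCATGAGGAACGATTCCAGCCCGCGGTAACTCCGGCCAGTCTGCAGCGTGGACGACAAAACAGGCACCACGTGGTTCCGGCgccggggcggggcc
PTPRK promoter, chr6:128520675-128520849, minus strand: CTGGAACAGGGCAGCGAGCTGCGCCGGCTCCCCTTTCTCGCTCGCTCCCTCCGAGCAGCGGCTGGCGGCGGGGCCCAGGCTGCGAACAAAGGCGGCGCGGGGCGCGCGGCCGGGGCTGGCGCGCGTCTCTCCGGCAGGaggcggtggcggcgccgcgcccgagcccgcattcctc
ID1 promoter, chr20:31605039-31605282, plus strand: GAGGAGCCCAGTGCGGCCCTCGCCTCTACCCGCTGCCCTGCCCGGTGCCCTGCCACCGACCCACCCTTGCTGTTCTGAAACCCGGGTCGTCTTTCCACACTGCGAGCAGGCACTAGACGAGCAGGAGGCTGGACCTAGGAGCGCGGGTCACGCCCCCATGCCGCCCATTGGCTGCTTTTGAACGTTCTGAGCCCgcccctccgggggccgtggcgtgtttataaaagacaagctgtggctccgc
Of the 199 bases shown for HSPA4, 131 lay inside ENSG00000286408. The numbers were 198 of 212 for SETD6, 138 of 175 for PTPRK and 194 of 244 for ID1. Windows of 250 bases before the RefSeq start were searched on both strands for 14 tested divergent genes. The GC box GGGCGG stood in 13 of the 14 and in 42.6% of 35116 RefSeq promoters of the same length. TGACG stood in 7 (21.2% of promoters), CCAAT in 5 (32%), GAANNTTC in 1 (5.78%) and TATAAA in 1 (10.7%), both of the last in the ID1 window. GC content of the windows ran from 58.8% at PRPF38B to 81.2% at EHBP1L1. The RefSeq promoters were not matched to them in GC content, so no enrichment is drawn from these shares. The 14 include genes that were higher, lower and not called.

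The last bases of 3 genes show where their annotated transcripts end. Read ends in these libraries were not analysed here. They are among the 3 largest increases and the 3 largest decreases outside coding genes that no other row overlaps, that averaged 10 CPM or more, whose groups did not overlap, and whose transcript GENCODE 29 holds. Each line gives the last 100 bases, 5′ to 3′ on the gene's own strand (GRCh38). Capitals mark the last AATAAA, the canonical signal for cleavage and polyadenylation, within the last 50 bases.
ENSG00000276855 (higher), chr17:15789606-15789705, plus strand: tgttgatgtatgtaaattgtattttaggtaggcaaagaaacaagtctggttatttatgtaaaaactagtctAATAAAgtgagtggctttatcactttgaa
ENSG00000260855 (lower), chr1:246775673-246775772, plus strand: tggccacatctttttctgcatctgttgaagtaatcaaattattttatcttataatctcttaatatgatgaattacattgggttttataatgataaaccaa
ENSG00000260912 (lower), chr9:19455074-19455173, plus strand: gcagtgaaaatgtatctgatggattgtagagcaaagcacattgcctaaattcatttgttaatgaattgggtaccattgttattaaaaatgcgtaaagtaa
The signal ended 23 bases before the end of ENSG00000276855. The other ends shown held none, and with 3 ends no comparison of directions is made. Over all 1619 genes with a transcript sequence in GENCODE 29, 55.4% had AATAAA in their last 50 bases. The share was 60.3% of 73 genes that were higher, 53.6% of 112 that were lower and 62.4% of 181 that were not called.

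Both directions of change were common. In the comparison of SiSFPQ with SiCtrl, 141 unnamed single-exon genes were higher and 174 were lower at an adjusted p under 0.05, and 356 were not called (edgeR's quasi-likelihood test with Benjamini-Hochberg adjustment over all 6325 tested genes). Called genes made up 46.9% of the 671, against 48.4% of all tested genes. In SiSFPQ 21% were higher, where the table had 24.5%, and 25.9% were lower, where the table had 24%. These shares lie close to the background. The median log2 fold change was -0.036, and 0.0079 over all tested genes. The median size of change, without its sign, was 0.43 on the log2 scale and 0.39 over all tested genes. Past a log2 fold of 1 were 51 genes higher and 52 lower, and the table had 6.86% and 5.38% of tested genes past it. The filter asked for 6.68 CPM, before TMM scaling, in 3 libraries. In 25 genes all SiSFPQ and no SiCtrl libraries reached it, and in 15 the reverse, so these had to differ, and they hold 22 of the 141 increases and 13 of the 174 decreases. CPM values of the groups did not overlap for 339 of the 671 (50.5%), against 54% over the table. DESeq2 made fewer calls, 68 higher and 98 lower, and 11.2% and 11.8% over the 7646 genes it tested. Of its 166 calls, 164 were also calls of edgeR in the same direction. On the genes edgeR tested, DESeq2 called 85 higher and 115 lower, where it called 16% and 17% of all of them.

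**Figure D1:**
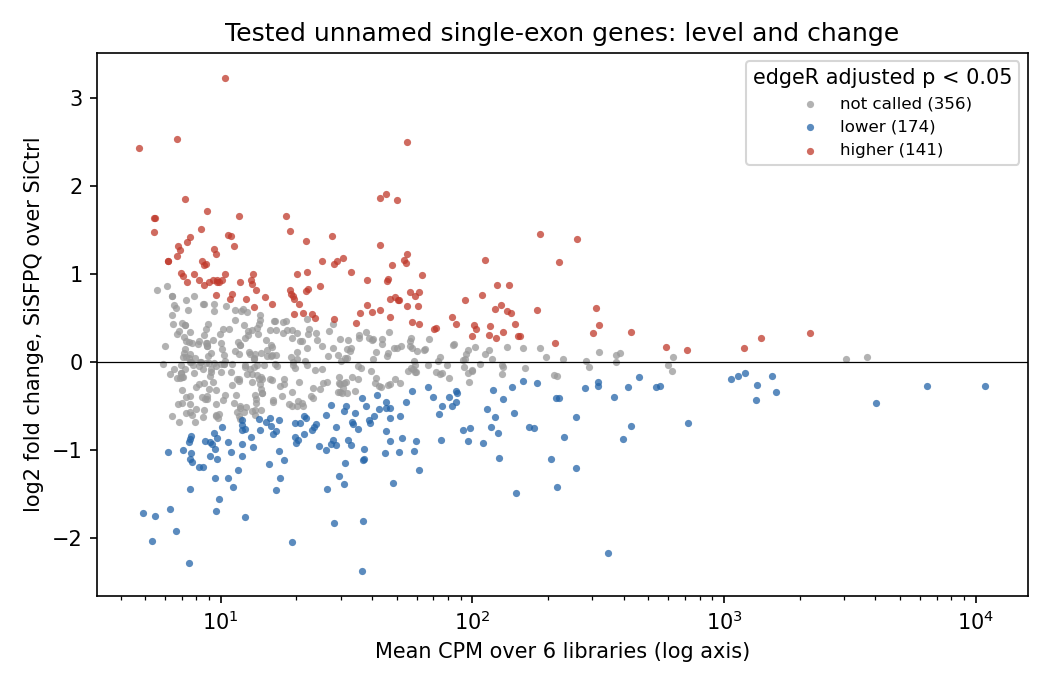
Log2 fold change of SiSFPQ over SiCtrl (vertical) against mean CPM over 6 libraries (horizontal, log axis) for the 671 tested genes, each point 1 gene. The 141 higher genes reach a mean level of 2199 CPM and the 174 lower genes one of 10924 CPM. Genes past a log2 fold of 2 in either direction had mean levels of at most 347 CPM.

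Of the 10 largest increases, 6 lay opposite exons of coding genes and 3 on the start side of one. Those positions held 339 and 46 of the 671 tested genes. ENSG00000287296 (chr19:13152252-13152913, minus strand) lies over an exon of IER2, an immediate early gene, on the opposite strand and outside its coding sequence. It was at 2.14, 2.04 and 1.5 CPM in SiCtrl and at 22.1, 16.2 and 18.1 CPM in SiSFPQ. It was near the limit of detection in every SiCtrl library, with 3, 3 and 2 counts. It passed the filter on low counts only through SiSFPQ and so had to differ, and its fitted log2 fold change of 3.23 ± 0.40 (SE) rests on those few counts and is given as a description. ENSG00000261845 (chr17:82602989-82604178, minus strand) lies opposite FOXK2, a forkhead transcription factor. It measured 12.1, 18.3 and 18.7 CPM in SiCtrl and 93.2, 84.1 and 102 CPM in SiSFPQ. The lowest SiSFPQ library was above the highest SiCtrl library, which the rule of choice required. The log2 fold change was 2.50 ± 0.16 (SE, adjusted p = 1.1e-49). ENSG00000309527 (chr7:143380401-143380862) lies on the start side of ZYX, which encodes zyxin of focal adhesions, and another row overlaps it. It rose from 19.3, 20.4 and 17.2 CPM to 65.7, 71.6 and 77.6 CPM, a log2 fold change of 1.91 ± 0.17 (adjusted p = 1.6e-27).

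ENSG00000299858 (chr19:18279732-18280083) lies opposite the end of JUND, a subunit of the AP-1 transcription factor. It was at 20.7, 26.5 and 18 CPM in SiCtrl and at 73.3, 82.8 and 79.5 CPM in SiSFPQ, a log2 fold change of 1.85 ± 0.16 (adjusted p = 7.4e-29). ENSG00000275719 (chr19:46787815-46789043), opposite the start of the glutamine transporter gene SLC1A5, was the most abundant of the 10 largest increases. It was at 92.8, 88.3 and 118 CPM in SiCtrl and at 283, 262 and 273 CPM in SiSFPQ, and its log2 fold change was 1.45 ± 0.09 (adjusted p = 9.5e-58). The groups did not overlap for either gene, which the rule of choice required. Increases opposite PRMT6, an arginine methyltransferase, and DDX6, an RNA helicase of processing bodies, had log2 fold changes of 1.86 and 1.66. In an intron of C5orf46, on the opposite strand, ENSG00000251320 rose by 1.49 on the same scale.

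Of the 10 largest decreases, 5 lay opposite exons of coding genes, as did 339 of the 671 tested genes. ENSG00000303304 (chr11:18269745-18269977, minus strand) lies opposite the end of SAA1, which encodes the acute-phase protein serum amyloid A. It was at 58.5, 65.9 and 58.4 CPM in SiCtrl and at 12.2, 11.2 and 11.6 CPM in SiSFPQ. Its log2 fold change was -2.38 ± 0.20 (adjusted p = 4.9e-31). ENSG00000272157 (chr8:24955691-24957125, plus strand) lies opposite the start of NEFL, the neurofilament light chain gene. It fell from 531, 554 and 619 CPM to 133, 118 and 128 CPM, with a log2 fold change of -2.17 ± 0.07 (adjusted p = 2.4e-180). These SiCtrl levels were the highest among the 10 largest decreases. ENSG00000289891 (chr18:35497677-35498194), opposite the start of INO80C, a subunit of the INO80 chromatin remodeller, was at 43.5, 41.4 and 47.9 CPM in SiCtrl and at 9.16, 14.9 and 12.3 CPM in SiSFPQ. Its log2 fold change was -1.84 ± 0.21 (adjusted p = 1.3e-16). ENSG00000273090, opposite an exon of CRIM1, a membrane protein that binds bone morphogenetic proteins, fell from 219 ± 24.3 to 78.1 ± 7.21 CPM (SD, n = 3 each). ENSG00000277504, opposite JPH3, a junctophilin, fell from 24.3 ± 2.70 to 8.81 ± 0.98 CPM. By the rule that chose them, no library of one group reached the other group's range in these 5 genes.

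Among the 10 largest decreases, 1 gene lay in an intron and 3 far from coding genes. ENSG00000272505 (chr8:10486807-10489666) is isolated and lies in an intron of PRSS51, on the opposite strand. It was at 32.1, 27.9 and 32.9 CPM in SiCtrl and at 7.64, 9.34 and 5.17 CPM in SiSFPQ, a log2 fold change of -2.05 ± 0.26 (adjusted p = 6.7e-14). Unspliced RNA of PRSS51 could add reads there, which was not tested. ENSG00000261069 (chr15:25087661-25088896, plus strand) lies within the span of SNHG14, the host transcript of the imprinted Prader-Willi region. It fell from 63.5, 47.6 and 60.6 CPM to 16.8, 18.1 and 13.6 CPM, a log2 fold change of -1.82 ± 0.19 (adjusted p = 1.2e-20). Since the SNHG14 row overlaps it, its reads and those of SNHG14 cannot be told apart. ENSG00000260966 on chromosome 11 and ENSG00000293235, over the pseudogene BNIP3P1 on chromosome 14, had log2 fold changes of -1.76 and -1.45, and another row overlaps each of them. Reads of a pseudogene can also come from its parent gene, and this was not tested. On the same strand as NRIP2, ENSG00000288984 fell by 1.42 on the log2 scale.

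**Figure D2:**
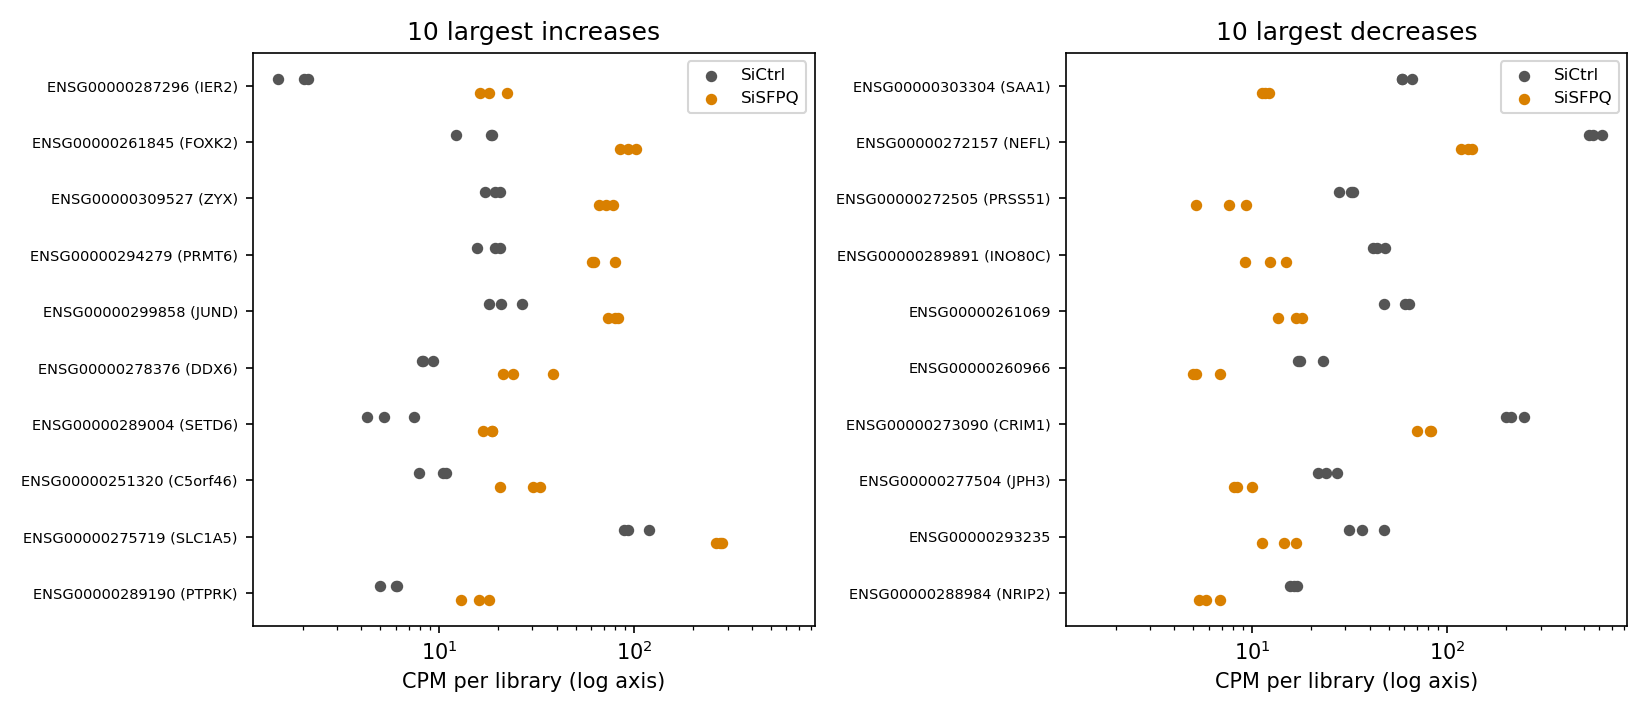
CPM in each library (log axis) for the 10 largest increases (left) and the 10 largest decreases (right), calls at 10 CPM or more on average whose groups do not overlap, with the coding gene at the position in brackets. Each dot is 1 library, 3 SiCtrl and 3 SiSFPQ a gene, and by the rule that chose them no gene has overlapping groups.

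Position relative to coding genes was not used to choose these genes. The largest tested class was opposite a coding exon, with 618 genes and 339 tested, of which 75 were higher and 78 lower, with a median log2 fold change of 0.030. The rest of the table had 746 higher and 710 lower of 3162 there (median 0.011). Over all tested genes 24.5% were higher and 24% lower. On the same strand as a coding exon, 5 of 36 tested genes were higher and 15 lower (median -0.20), against 139 and 133 of 506 other rows (median 0.024). The decreases in that class were mostly over exon sequence outside the coding part, where 11 of 21 were lower and 2 higher (median -0.51). Genes in an intron on the same strand counted 20 higher and 29 lower of 98 (median -0.22), and those opposite an intron 5 and 11 of 40 (median -0.27). Other rows counted 27 and 18 of 100 (median 0.15) and 44 and 35 of 151 (median 0.023). Within 5000 bases of a coding gene's start, 14 of 46 were higher and 7 lower (median 0.26), and near its end 7 and 6 of 37 (median -0.18). Other rows had 131 and 49 of 359 (median 0.24) near starts, and 37 and 33 of 170 (median 0.020) near ends. Farther away, 15 were higher and 28 lower of 75 (median -0.12), beside 282 and 364 of 1206 other rows (median -0.083). No test was made between classes, because genes are not replicates. Together the classes include the 40 genes that reached the filter on low counts in 1 group only, of which 22 were higher and 13 lower.

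Some of these medians moved with single libraries. Without SiSFPQ replicate 2 the median near coding starts was 0.11, and without SiCtrl replicate 2 that near coding ends was -0.082. Without SiCtrl replicate 1 the median opposite introns was -0.11. Without SiSFPQ replicate 3 that opposite coding exons was -0.0045. On the same strand as exons it was -0.13 without SiCtrl replicate 3. In introns on the same strand the median stayed between -0.26 and -0.16 whichever library was left out. Of the 201 tested isolated genes, 35 were higher and 55 lower, with a median of -0.14. Isolated rows elsewhere in the table counted 202 higher and 189 lower of 756 (median 0.042). The isolated genes in introns on the same strand held 27 of these 55 decreases, with 12 higher of 83 (median -0.30).

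**Figure D3:**
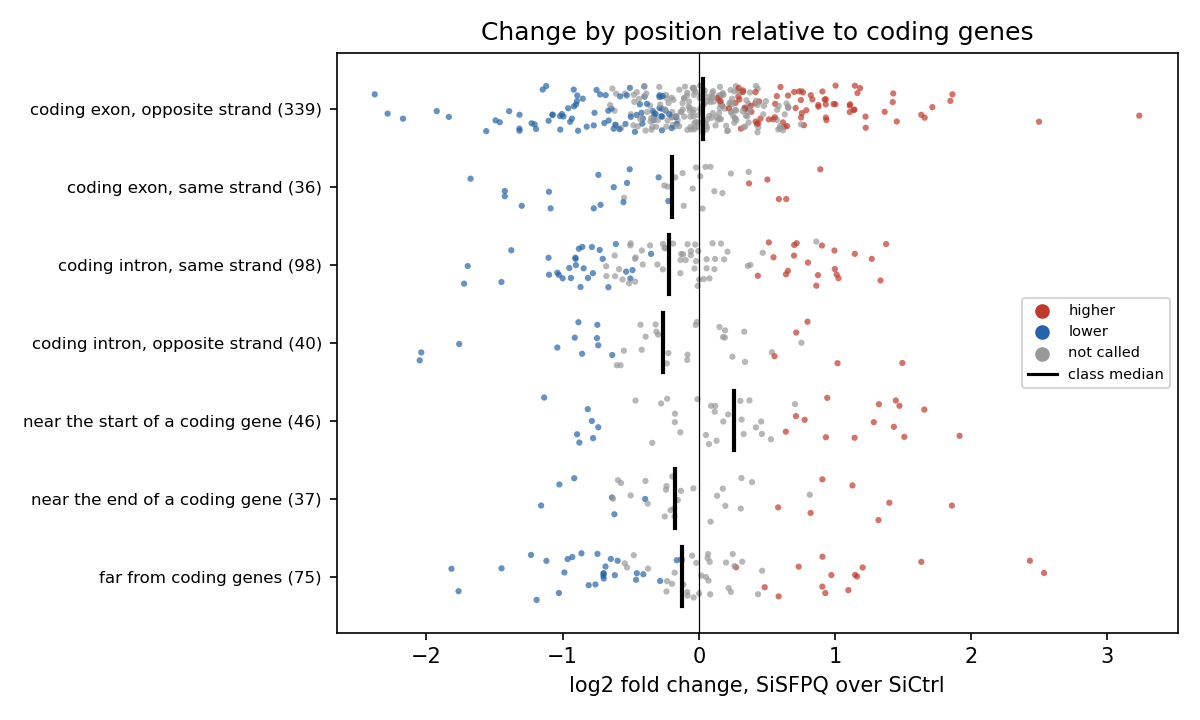
Log2 fold change of each tested gene (horizontal) by its position relative to coding genes (rows, with the number tested), coloured by the call, and the median of each class as a black bar. Medians run from -0.27 opposite introns to 0.26 near coding starts, and every class holds genes that were higher and genes that were lower.

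Genes over coding exons held most of the counts, and their leaders were abundant. ENSG00000272540, inside TUBB, the gene of a beta tubulin, alone held 13.6% of all counts of the 3839 genes, and the first 6 held 37.8%. It was at 11605, 11978 and 12261 CPM in SiCtrl and at 10040, 9513 and 10148 CPM in SiSFPQ, a log2 fold change of -0.27 ± 0.04 (adjusted p = 7.7e-11). ENSG00000302134, inside LGALS1 (galectin-1), went from 6991 ± 287 to 5780 ± 172 CPM, and ENSG00000294961, inside B2M (beta-2 microglobulin), from 4650 ± 283 to 3360 ± 84.6 CPM (SD, n = 3 each). Both fell, by 0.27 and 0.47 on the log2 scale, with groups that did not overlap. ENSG00000300077, inside RPS9, rose from 1953 ± 48.1 to 2445 ± 92.5 CPM (log2 fold change 0.32 ± 0.05, adjusted p = 1.9e-11). The genes over PABPC1, a poly(A) binding protein, and over EIF3L, a translation initiation factor subunit, were at 3623 ± 66.9 and 3032 ± 110 CPM in SiCtrl and at 3779 ± 64.6 and 3092 ± 118 CPM in SiSFPQ. Neither passed the test (adjusted p = 0.24 and 0.64). Over 15 alternatives the adjusted p of the gene over PABPC1 ran from 0.0091, with plain library totals, to 0.57.

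Summed over all 3839, the unnamed single-exon genes took 7.96%, 8.09% and 8.03% of the table's counts in SiCtrl and 7.73%, 7.62% and 7.70% in SiSFPQ. The groups did not overlap, and the share was lower by 0.344 percentage points (8.03 ± 0.063% and 7.68 ± 0.056%, SD, n = 3 each). The exact two-sided permutation test gave p = 0.1, the smallest that 3 against 3 libraries allow. Of this difference, 0.314 points lay in the genes over coding exons, which went from 6.69% to 6.37%. Without the gene inside TUBB the share went from 6.88% to 6.69%. Isolated genes took 0.849% and 0.857%, a difference of 0.0085 points the other way (exact p = 0.5), with overlapping groups. The share of genes near coding ends was 0.108% to 0.109% across SiCtrl libraries and 0.133% to 0.142% across SiSFPQ libraries, the class with the largest ratio (1.26). That ratio rests on the gene past TEAD4, described next. Without it the class took 0.0933% to 0.0962% in SiCtrl and 0.0979% to 0.101% in SiSFPQ libraries, a ratio of 1.05.

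**Figure D4:**
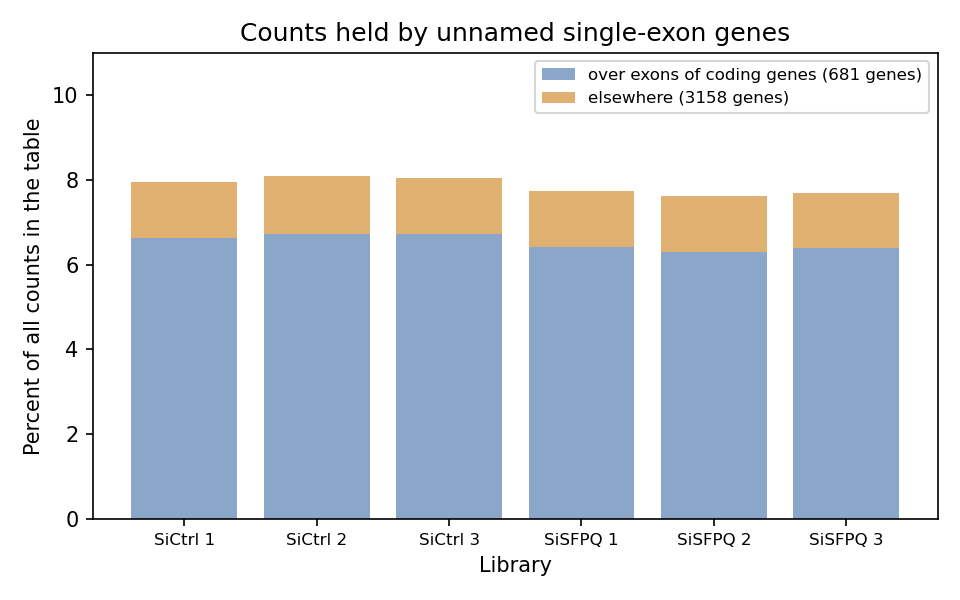
Percent of all counts in the table (vertical, from 0) held by unnamed single-exon genes in each of the 6 libraries, split into the 681 over exons of coding genes and the 3158 elsewhere. SiCtrl libraries lie between 7.96% and 8.09% and SiSFPQ libraries between 7.62% and 7.73%.

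Outside coding genes and their introns, values are given for the 3 largest increases and decreases under the conditions stated above for the transcript ends. Isolated genes in introns, or without a transcript in that release, were not eligible, and some of them changed more. ENSG00000250899 (chr12:3041437-3044950, plus strand) starts 764 bases past the end of TEAD4, a transcription factor of the Hippo pathway. It was at 136, 132 and 161 CPM in SiCtrl and at 370, 352 and 407 CPM in SiSFPQ, with a log2 fold change of 1.40 ± 0.08 (adjusted p = 3.5e-69). No other row overlaps it. Whether transcription running past the end of TEAD4 adds to its reads was not tested. ENSG00000277938, past the end of ENTPD6, a nucleotide-hydrolysing enzyme, rose from 6.46 ± 1.48 to 16.2 ± 1.65 CPM, and ENSG00000276855, far from coding genes, from 30.5 ± 10.2 to 65.2 ± 1.87 CPM (SD, n = 3 each). The decreases were ENSG00000260855 past SCCPDH, from 21.5 ± 3.13 to 9.59 ± 1.78 CPM, ENSG00000267547, from 24.3 ± 5.26 to 11.3 ± 1.17 CPM, and ENSG00000260912 past the ceramidase gene ACER2, from 68.7 ± 9.51 to 33.6 ± 5.61 CPM. Their log2 fold changes were -1.16, -1.12 and -1.02. Groups that do not overlap were a condition of their choice.

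Divergent genes at the promoters printed above were low. Groups were apart at 3 of the 4, but at SETD6 and PTPRK this was a condition of their choice. The printed promoters were chosen with the values known. ENSG00000286408 at HSPA4, a heat shock protein of the Hsp110 family, was at 17.8, 10.9 and 16.5 CPM in SiCtrl and at 38.2, 40.5 and 42.7 CPM in SiSFPQ (log2 fold change 1.43 ± 0.21, adjusted p = 7.6e-11). It ranked just below the 10 largest increases and is named after its values were seen. ENSG00000289004 at SETD6, a lysine methyltransferase gene, rose from 5.66 ± 1.64 to 18.1 ± 1.11 CPM, and ENSG00000289190 at PTPRK, a receptor tyrosine phosphatase gene, from 5.70 ± 0.61 to 15.7 ± 2.59 CPM (SD, n = 3 each). Both had at most 30 counts in every library, and the gene at PTPRK passed the filter on low counts only through SiSFPQ. ENSG00000289875 at ID1, an inhibitor of basic helix-loop-helix factors, was at 8.56, 12.9 and 9.73 CPM in SiCtrl and at 9.16, 2.49 and 3.23 CPM in SiSFPQ. There the groups overlapped, since SiSFPQ replicate 1 lay above the lowest SiCtrl library (log2 fold change -1.14 ± 0.37, adjusted p = 0.0063). Of all 20 tested divergent genes within 1000 bases of a coding start, 6 were higher and 2 lower (30% and 10%, beside 24.5% and 24% of all tested genes).

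In introns, ENSG00000203644 in TMCC1 was at 110, 94.4 and 90.5 CPM in SiCtrl and at 178, 169 and 195 CPM in SiSFPQ, and rose by 0.88 ± 0.10 on the log2 scale (adjusted p = 1.8e-18). ENSG00000290107 in ADCY1, an adenylyl cyclase gene, was at 64.2, 63.2 and 81.5 CPM and then at 27.5, 29.9 and 22.6 CPM, a log2 fold change of -1.38 ± 0.16 (adjusted p = 6.0e-17). Both lie on the strand of their host gene and neither overlaps another row. Their reads and those of unspliced host RNA cannot be told apart. On the strand of ZBTB20, a zinc-finger repressor gene, ENSG00000259976 covers 15214 bases at the gene's end. It fell from 317 ± 26.1 to 118 ± 5.54 CPM (SD, n = 3 each), and ENSG00000262160 at the end of ESRP2, an epithelial splicing regulator, from 280 ± 22.0 to 131 ± 0.89 CPM. The latter shares 1766 bases with ENSG00000263276 on the other strand, which fell by 1.09 on the log2 scale, where ENSG00000262160 fell by 1.10. On the reading that strands were not separated, reads of the shared bases can count for both. ENSG00000262160 also lies over exons of NFATC3, as does ENSG00000263276. Another row there, ENSG00000261864, had a log2 fold change of -0.51.

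At histone genes the neighbours went both ways. ENSG00000290792, on the start side of HIST2H2AA4, fell from 516 ± 20.7 to 280 ± 15.1 CPM, and ENSG00000261324, past the end of HIST4H4, rose from 34.2 ± 2.85 to 75 ± 2.39 CPM (SD, n = 3 each). No unnamed single-exon gene lay over an exon of a replication-dependent histone gene. Far from coding genes, ENSG00000305854 (chr11:65426052-65426293, minus strand) lies inside the span of NEAT1, the paraspeckle RNA, opposite to it. It was at 963, 921 and 789 CPM in SiCtrl and at 523, 597 and 527 CPM in SiSFPQ (log2 fold change -0.70 ± 0.06, adjusted p = 5.8e-34). Its reads and those of NEAT1 cannot be told apart. ENSG00000272447 on chromosome 10, overlapped by 2 other rows, rose from 69.5 ± 12 to 155 ± 9.45 CPM. ENSG00000266369, in an intron of CCDC144NL on the opposite strand, fell from 149 ± 9.56 to 89.2 ± 1.74 CPM.

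Genes over exons of 15 lists of coding genes were few, with 31 tested in all. Of these 9 were higher and 5 lower, where 24.5% and 24% of all tested genes were. With so few per list, the counts below describe single genes and set no list apart. Over cytosolic ribosomal protein genes, 3 of 6 tested were higher and none was lower: those at RPS9, at RPL34 (log2 fold change 0.16) and at RPS25 (0.89, a row that also lies over TRAPPC4). Other rows over the same list counted 14 higher and 1 lower of 27. Both tested genes over immediate early genes, at IER2 and JUND, were higher, and of 16 other rows there 5 were higher and 1 lower. The gene at IER2 passed the filter on low counts only through SiSFPQ and so had to differ. Over genes of ribosome biogenesis and the nucleolus, 2 of 3 were higher. They lay at IMP3, a protein of the small subunit processome, from 18.8 ± 1.42 to 42.4 ± 5.66 CPM (SD, n = 3 each), and at POLR1C, a subunit of RNA polymerases I and III (log2 fold change 0.31). Of 14 other rows over that list 5 were higher and 1 lower. At the mitotic kinase gene PLK1 the 1 tested gene rose from 31.6 ± 6.69 to 59.7 ± 10.7 CPM, and 2 of 6 other rows over mitosis genes were higher and none lower.

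Decreases were found over genes of other lists. At the matrix protease inhibitor gene TIMP2, ENSG00000267601 was at 393, 344 and 346 CPM in SiCtrl and at 163, 161 and 146 CPM in SiSFPQ (log2 fold change -1.21 ± 0.08, adjusted p = 2.7e-53). It was the only tested gene over the matrix list, where 10 of 15 other rows were lower and none was higher. Over glycolysis and hypoxia genes 2 of 3 were lower, at NDRG1, a hypoxia-induced gene (log2 fold change -0.62), and at the glycolytic enzyme gene ALDOA (-0.17), and 11 of 19 other rows were lower and 3 higher. Over p53 targets 1 of 2 was lower, at SESN1, a sestrin, from 51.1 ± 7.69 to 23.4 ± 5.73 CPM (SD, n = 3 each), and the 7 other rows there split evenly, 3 higher and 3 lower. Over splicing factor and paraspeckle protein genes 1 of 5 was lower, at HNRNPU, a nuclear matrix RNA-binding protein (log2 fold change -0.16 ± 0.05, adjusted p = 0.0023), where 15 other rows counted 5 higher and 6 lower. That call was lost with plain library totals (adjusted p = 0.077) and without SiSFPQ replicate 1 (0.063), and over all 15 alternatives the adjusted p started at 0.00025.

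Over DNA replication genes 1 of 4 was higher, at GINS3, a subunit of the replicative helicase (log2 fold change 0.77 ± 0.24, adjusted p = 0.0037). Of 9 other rows over that list none was higher and 5 were lower. Its call was lost without SiSFPQ replicate 3 (adjusted p = 0.053), and over 15 alternatives the adjusted p ran from 0.0014 to 0.11, the latter with DESeq2. None of 3 tested genes over nuclear genes of oxidative phosphorylation passed, the nearest being the one at UQCRC2, at 14.5 ± 1.55 CPM in SiCtrl and at 9.25 ± 3.44 CPM after the SFPQ siRNA (SD, n = 3 each, adjusted p = 0.069). Without SiSFPQ replicate 3 it passed (adjusted p = 0.020), and the largest value over the alternatives was 0.36. Of 17 other rows over that list 9 were lower and none higher. The 1 tested gene over the interferon list, at IFI6, did not pass (log2 fold change 0.12, adjusted p = 0.47), and 4 of 7 other rows were lower. None was tested over the histone, sterol synthesis, heat shock, or integrated stress and unfolded protein response lists.

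Where another tested row lay over the same coding gene, the pair showed how far such rows moved together. There were 133 pairs. Of the 31 whose spans overlapped, 15 had both rows called in 1 direction, none had them called in opposite directions, and the median difference between the rows was 0.18 on the log2 scale. Overlapping spans can hold the same reads. Of the 102 pairs whose spans lay apart, 26 were called in 1 direction, 9 in opposite directions, 38 had 1 row called and 29 none, with a median difference of 0.43. Across pairs, Pearson's r of the 2 changes was 0.80 for overlapping spans and 0.37 for spans apart, as a description over rows from the same libraries.

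At some coding genes the fitted changes of the rows were far apart. At FOXK2, ENSG00000261845 had a log2 fold change of 2.50 and the other row one of 0.71, both calls. At IER2, beside the few SiCtrl counts of ENSG00000287296, ENSG00000267598 was at 195 CPM with a log2 fold change of 0.0099 and did not pass the test. Rows called in opposite directions lay at BCL2L2, FOXN3, GDPD3, ITFG2, KMT2E, NBR1, PRKCZ, REXO1 and TAF10. At KMT2E, a chromatin regulator gene, ENSG00000272918 fell from 10.5 ± 3.55 to 2.72 ± 0.74 CPM (SD, n = 3 each) and KMT2E-AS1 had a log2 fold change of 0.74. The first of these passed the filter through SiCtrl alone. At TAF10, a subunit of the general factor TFIID, ENSG00000304335 fell by 1.12 on the log2 scale and ENSG00000254641 had a log2 fold change of 0.46. Another row over TAF10, ENSG00000285338, overlaps ENSG00000304335 and was not called (-0.10). ENSG00000304335 also lies over exons of TPP1, where ENSG00000255680 was lower too, with a log2 fold change of -1.27. The difference between the rows of a pair was not tested.

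**Figure D5:**
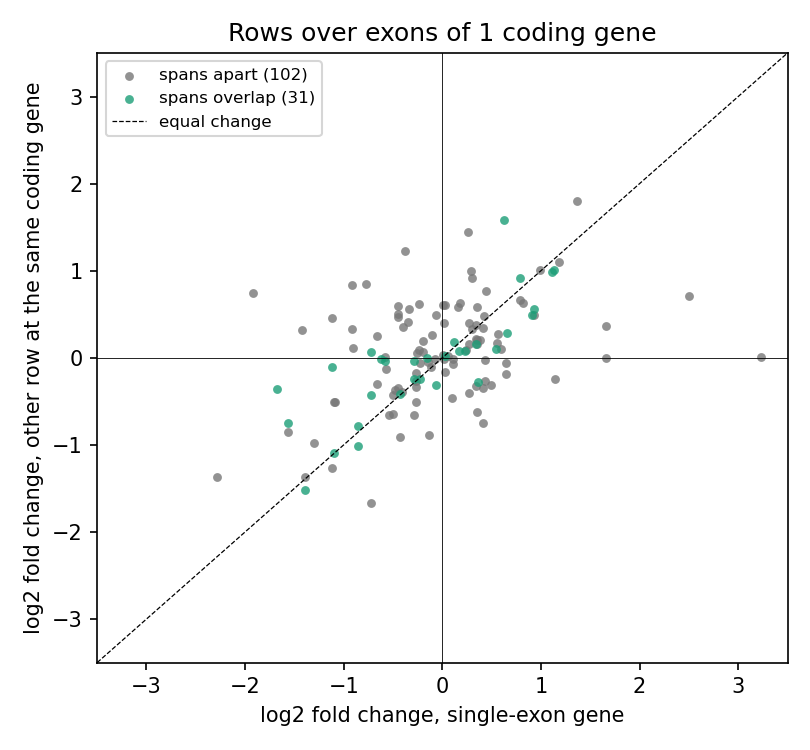
Log2 fold change of an unnamed single-exon gene (horizontal) against that of another tested row over exons of the same coding gene (vertical), 1 point a pair, with the line of equal change dashed. The 31 pairs with overlapping spans lie nearer to the line, with a median difference of 0.18, than the 102 pairs with spans apart, with 0.43.

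Base composition was compared between the directions of change. Transcript GC content had a median of 49.1% in 73 genes that were higher, 42.3% in 112 that were lower and 46.1% in 181 that were not called, and 42.8% over all 1619 genes with a sequence. Spearman's rho between GC content and log2 fold change was 0.26 across 366 tested genes, 0.32 over coding exons (182 genes), 0.15 in the isolated set (123 genes) and 0.13 across 3377 other rows of the table. Between single libraries of opposite groups, rho of GC content with the log2 ratio ran from 0.167 to 0.278, and for a library against the others of its own group from -0.106 to 0.165. Genes share their libraries, so these are descriptions, and whether library preparation had a part was not tested. For length and level, rho with the change was -0.062 and -0.051 across 671 genes. Genes over annotated pseudogenes counted 2 higher and 11 lower of 35 tested, or 5.71% and 31.4%, beside 24.5% and 24% of all tested genes.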

How the data were processed

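RNA-seq was measured in 6 libraries. The authors deposited 1 table of raw counts, whole numbers for each gene and library, used as it stands. Per the labels' protocols the libraries were stranded and poly(A)-selected. No source used here names the aligner, the counting program, the annotation or the build. Of 13886 identifiers shared with GENCODE 29, all lay on the same chromosome and 13874 overlapped its position. The labels name neither separate cultures nor a batch, so p-values measure only the spread between these samples, which may be technical.

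All 6325 genes that passed filterByExpr were fitted at once with edgeR 4.0.16 in R 4.3.3 (TMM factors, robust quasi-likelihood fit, group as the only term, two-sided), with Benjamini-Hochberg adjustment at 0.05 over the whole table. Alternatives were RLE, upper-quartile and plain-total scaling, omitting the filter, a filter at 1 CPM in 3 libraries, limma-voom (limma 3.58.1), DESeq2 1.42.0, the replicate number as a block, and each library left out in turn. DESeq2 on the genes edgeR tested was added after seeing the data.

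Position came from GENCODE 29 coding genes, either strand, with near meaning within 5000 bases. Named genes were the 10 largest increases and decreases among calls of at least 10 mean CPM with groups apart, the 6 most abundant, the 2 smallest adjusted p of each position class, and the smallest of each coding gene list. Members and lists were chosen with earlier results of these data known, and others are named as chosen after their values were seen. The rule for printed sequences reached no gene with a transcript sequence, so the sequences shown were chosen after the values were seen, and 3 of those chosen are not reported here. Runs of A past the gene ends were not analysed here, since they need a genome sequence.

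Libraries of 1 group were not duplicates (chi-square per degree of freedom 1.25 to 1.40). Same-numbered libraries did not deviate together (r -0.0045 to 0.0093), so the numbers were not used as pairs.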

Additional observations from a re-analysis of the deposited data

How the results depend on the processing

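Counts of calls moved most with DESeq2, which gave 68 higher and 98 lower, or 85 and 115 on the genes edgeR tested, against 141 and 174. The cause was not tested. Past a log2 fold of 1 were 51 and 52, and isolated genes alone gave 35 and 55, both by construction of fewer genes. Leaving out 1 library gave 124 to 138 higher and 158 to 171 lower. With the replicate block there were 142 higher and 172 lower, and 312 of its 314 calls were also calls without the block, so the block changed little, and the numbers do not pair the libraries.

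The median log2 fold change of -0.036 was 0.028 with plain library totals, -0.065 without a filter, -0.14 in isolated genes, and -0.070 to -0.017 when 1 library was left out. By position, plain totals gave 0.094 opposite exons, -0.13 on the strand of exons, -0.15 in introns on the same strand and -0.059 far from coding genes. No filter gave -0.034 opposite exons, -0.15 in introns on the same strand, -0.076 opposite introns and -0.014 far away. The filter at 1 CPM gave -0.087 opposite introns and -0.065 far away, and DESeq2 gave -0.034 opposite exons, -0.083 opposite introns and -0.018 far away. Leaving out 1 library gave -0.0045 to 0.059 opposite exons, -0.24 to -0.13 on the strand of exons, -0.26 to -0.16 in introns on the same strand, -0.38 to -0.11 opposite introns, -0.17 to -0.10 far away, -0.15 to -0.082 near ends and 0.11 to 0.27 near starts. The difference in share of counts, -0.344 points, turned to 0.0085 in isolated genes and was -0.377 to -0.312 with 1 library left out.

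The genes named by the rule had 675 values under alternatives, of which 668 kept their call or lack of one, 5 lost the call and 2 gained it. No value of a called gene changed sign. Of the 60 values of genes that were not called, 3 changed sign, in 2 genes. At 4.75 to 10 CPM a library holds few counts of a gene, and smaller changes there were not detectable at this depth.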

Other observations

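Among the genes with too few counts to test, 7 had at least 8 counts in 1 group and none in the other, and were chosen after their values were seen. ENSG00000260949, past the end of EIF4EBP1, which encodes a repressor of cap-dependent translation, had no count in SiCtrl and 3, 9 and 5 counts in SiSFPQ. Against a floor of 3 counts over the group, scaled to the totals, it was at least 5.35-fold higher in SiSFPQ. ENSG00000297601, opposite an intron of the glucose transporter gene SLC2A14, had no count in SiCtrl and 2, 4 and 4 in SiSFPQ, at least 3.14-fold higher. ENSG00000274995, in an intron of SMAD6, an inhibitory SMAD, had 2, 2 and 5 counts in SiCtrl and none in SiSFPQ, at least 3.18-fold lower. The other 4, at FANCC, PDE1C, TLE3 and LONRF1, had 0 counts in SiCtrl and 8 in SiSFPQ, at least 2.52-fold higher. The smallest of these folds, 2.52, was set by the rule that chose the genes, and the folds carry no error for such low counts. No test was made for any of these genes.

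A pair of unnamed single-exon genes on opposite strands held similar counts. ENSG00000269910 and ENSG00000269940 share 491 bases, of 535 and 611. The first had 41, 59 and 50 counts in SiCtrl and 84, 85 and 92 in SiSFPQ, and the second 45, 59 and 58 and then 91, 91 and 97. Library by library the counts of the 2 genes lie close to each other. On the reading above that strands were not separated, reads in the shared bases can count for both genes.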
